A study of Mus musculus with 32 samples.

Results

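The genes described here are the 10 that encode the Ring and Pcgf subunits of Polycomb repressive complex 1 (PRC1) together with the Rybp and Yaf2 subunits, out of 41388 genes counted in each of 24 mouse RNA-seq libraries. They were chosen by name, with earlier results of these data known: Ring1, Rnf2, Bmi1, Pcgf1, Pcgf2, Pcgf3, Pcgf5, Pcgf6, Rybp and Yaf2. RNA came from sorted haematopoietic stem cells (HSC) and multipotent progenitors (MPP) of C57BL/6 mice, each library made from a pool of animals. Within 1 cell type, p-values therefore measure the spread between pools. Whether HSC and MPP of 1 genotype came from the same pools is not known here, and the tests count them as separate. Per the labels both gates were negative for mature lineage markers and positive for cKit and Sca1, and HSC carried CD150 without CD48, whereas MPP lacked CD150. The Vav cohort compared Vav-CRE control with Vav-CRE Jarid2-KO mice of 8 weeks in 4 groups of 3 libraries (HSC and MPP of each genotype). Vav-CRE removes the gene in blood cells from fetal life on, and Jarid2 is an accessory subunit of PRC2, the Polycomb complex that methylates histone H3. The Mx1 cohort held HSC and MPP of 3 Mx1-CRE genotypes at 10 weeks of age, in 6 groups of 2 libraries: control, Jak2V617F (an activating kinase allele), and a double mutant with both Jak2V617F and Jarid2-KO. These mice were taken 2 months after pIpC, the agent that switches on Mx1-CRE, which is active in blood and in some other tissues. Groups follow the labels of the samples, although the series' design text has Jarid2-KO in place of Jak2V617F for 1 Mx1 genotype.

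PRC1 is a family of complexes that place a single ubiquitin on histone H2A and compact chromatin. Each complex has a catalytic core of one RING protein (Ring1 or Rnf2, also called Ring1B) and one Pcgf protein, and the Pcgf protein decides which further subunits join. Bmi1 (Pcgf4) and Pcgf2 (Mel18) can form canonical complexes, in which a Cbx protein reads the methyl mark left by PRC2, while Pcgf1, Pcgf3, Pcgf5 and Pcgf6 form variant complexes that hold Rybp or Yaf2 in place of Cbx. In blood, Bmi1 is known for keeping HSC self-renewing by silencing the cell cycle inhibitors of the Cdkn2a locus.

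On the mm10 build the 10 genes lie on 8 chromosomes. The catalytic genes are Ring1 (ENSMUSG00000024325, chromosome 17, 34020792 to 34024680) and Rnf2 (ENSMUSG00000026484, chromosome 1, 151458004 to 151500955), both on the minus strand. Bmi1 (ENSMUSG00000026739) is at 18677018 to 18686629 on chromosome 2, and Pcgf2 (ENSMUSG00000018537) is at 97688823 to 97700497 on chromosome 11, minus strand. Of the Pcgf genes of variant complexes, Pcgf1 (ENSMUSG00000069678) is on chromosome 6 from 83077869, Pcgf3 (ENSMUSG00000033623) on chromosome 5 from 108461232, and Pcgf5 (ENSMUSG00000024805) and Pcgf6 (ENSMUSG00000025050) on chromosome 19 from 36379067 and 47033619. Rybp (ENSMUSG00000072872) is on chromosome 6 from 100228566 and Yaf2 (ENSMUSG00000022634) on chromosome 15 from 93284278. Rnf2 was the single member whose exons overlapped another gene, sharing 158 bases (3.83% of its exonic length) with Trmt1l on the opposite strand, and whether counting used strand is not given in the sources used here.

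Promoter windows, running from 250 bases before to 50 bases after an annotated start, were found for 7 of the 10 genes in RefSeq (GRCm38.p6), 9 windows in all. The windows of Pcgf2, the member with the largest difference between genotypes over both Vav cell types, and of the catalytic paralogs Ring1 and Rnf2, whose levels differed most between members in the Vav cohort, are printed 5′ to 3′ on the gene's strand. Capitals mark CG dinucleotides.
Pcgf2, chr11:97699599-97699898, minus strand: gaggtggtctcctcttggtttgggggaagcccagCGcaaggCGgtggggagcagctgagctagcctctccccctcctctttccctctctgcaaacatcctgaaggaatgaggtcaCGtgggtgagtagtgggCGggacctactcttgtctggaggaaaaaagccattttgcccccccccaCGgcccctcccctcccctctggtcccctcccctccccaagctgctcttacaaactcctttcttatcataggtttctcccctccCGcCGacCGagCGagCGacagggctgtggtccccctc
Ring1, chr17:34024631-34024930, minus strand: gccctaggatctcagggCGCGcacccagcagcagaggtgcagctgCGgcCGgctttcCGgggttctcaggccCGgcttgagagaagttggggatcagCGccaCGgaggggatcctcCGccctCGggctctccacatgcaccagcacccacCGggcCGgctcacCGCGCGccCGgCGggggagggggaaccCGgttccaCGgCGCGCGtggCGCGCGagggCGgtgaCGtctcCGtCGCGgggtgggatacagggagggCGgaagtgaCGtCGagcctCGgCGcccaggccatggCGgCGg
Rnf2, chr1:151500942-151501241, minus strand: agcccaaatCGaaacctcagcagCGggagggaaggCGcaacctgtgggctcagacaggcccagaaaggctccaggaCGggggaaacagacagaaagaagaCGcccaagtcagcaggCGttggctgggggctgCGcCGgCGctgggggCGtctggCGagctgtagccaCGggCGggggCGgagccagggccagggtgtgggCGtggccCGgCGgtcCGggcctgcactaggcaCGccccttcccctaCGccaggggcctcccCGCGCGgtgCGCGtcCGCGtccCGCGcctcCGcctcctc
The Pcgf2 window held 10 CG dinucleotides at 61.7% G and C, whereas the Ring1 window held 37 at 74% and the Rnf2 window 30 at 72.7%. The median over 32851 RefSeq promoter windows of the same length was 7 CG. The motifs were searched on both strands, namely the E-box CACGTG, the Ets core GGAAGT and the GC box GGGCGG, none of which contains another. CACGTG was present in the windows of Pcgf2 and Bmi1 and in 7.15% of all windows. GGAAGT was present in the Ring1 window, in the Pcgf6 window and in 1 of 3 Pcgf5 windows, and in 23.8% of all windows. GGGCGG was present in the windows of every member with one except Pcgf3, in 2 of the 3 Pcgf5 windows, and in 35.7% of all windows.

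Vav libraries held 10473535 to 27232379 counts each, and the Mx1 libraries 7852483 to 20724168. Jarid2 reads did not check the labels: its mean level in counts scaled to a common library total (CPM) was 103 in Jarid2-KO and 93.9 in control HSC of the Vav cohort. In the Vav cohort the CD150 gene Slamf1 followed the gates, with 57.4 to 95.5 CPM in HSC and 2.19 to 14.1 in MPP. In the Mx1 cohort the 4 libraries labelled control or Jak2V617F HSC had Slamf1 at 0.196 to 12.7 CPM, a sum of 220 to 296 CPM over 10 HSC markers (2473 to 3070 in Vav HSC) and 33376 to 78495 CPM over 12 granulocyte and monocyte markers (1028 to 8487 in Vav HSC). They are therefore called here the libraries labelled HSC, and where a contrast of these genotypes names HSC it means these libraries. The 4 MPP libraries of the same genotypes had 276 to 322 CPM over the HSC markers (2435 to 2705 in Vav MPP), 18666 to 77821 CPM over the granulocyte and monocyte markers (4463 to 5946 in Vav control MPP), and Flt3, a receptor gene of MPP, at 18.9 to 117 CPM (405 to 580 in Vav control MPP). Every Mx1 library also held heart muscle transcripts, 0.529% to 9.39% of counts in a list of 20 heart genes against at most 0.00296% in the Vav cohort. In 6 of them this share was above 4%: 1 each of control MPP, Jak2V617F HSC, double mutant HSC and double mutant MPP, and both of Jak2V617F MPP. In the Vav cohort Jarid2-KO MPP replicate 1 stood apart, with 0.559% of counts from mitochondrial genes (1.63% to 3.46% in the other 11) 22752 CPM over the granulocyte and monocyte list, 1105 CPM over 8 immediate early genes (43.8 to 247 in the other 11) and 578 CPM over 8 stroma and endothelium markers (107 to 199.5). Xist, transcribed from the inactive X chromosome of females, was at 1.82 CPM in 1 of the 3 Jarid2-KO MPP libraries and at 191 CPM or more in the other 11 Vav libraries.

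All 10 subunits had counts in every library, the lowest being 14 counts (0.972 CPM) of Pcgf2 in the Mx1 library labelled control HSC replicate 2. Compared per length, as CPM per kilobase of exonic length (RPKM), Rnf2 was the highest in the Vav cohort with a median of 52.6, above every other member in 12 of 12, and its paralog Ring1 was the lowest with 1.24. The next were Pcgf5 (25.8), Yaf2 (19.8), Pcgf1 (12.6), Bmi1 (8.23) and Pcgf6 (5.65), and the low end held Pcgf3 (2.52), Pcgf2 (1.71) and Rybp (1.66). Most steps in this order were seen in nearly all libraries: in RPKM Pcgf1 exceeded Bmi1 and Pcgf6 exceeded Pcgf3 in 12 of 12. Neighbours that changed places were Pcgf5 and Yaf2 (9 of 12), Yaf2 and Pcgf1 (11 of 12), Bmi1 and Pcgf6 (11 of 12), Pcgf3 and Pcgf2 (8 of 12), Pcgf2 and Rybp (7 of 12), and Rybp and Ring1 (9 of 12). The division by length is the same in each library, so these counts do not test it. Exonic length was 1471 bases for Pcgf1 and 3974 for Bmi1, and 2098 for Pcgf6 and 9544 for Pcgf3. Without it both steps turned round: the median CPM was 32.7 for Bmi1 and 18.6 for Pcgf1, and higher for Pcgf3 than for Pcgf6. By median CPM Rnf2 (217) was still the highest and Ring1 (4.01) the lowest. Of the summed RPKM of the 6 Pcgf genes, Pcgf5 made up a median of 45.5%, Pcgf1 20.9%, Bmi1 14.2%, Pcgf6 10.2%, Pcgf3 4.08% and Pcgf2 3.10%, so the Pcgf genes of variant complexes held most of the total and Bmi1 most of the canonical share.

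**Figure D1:**
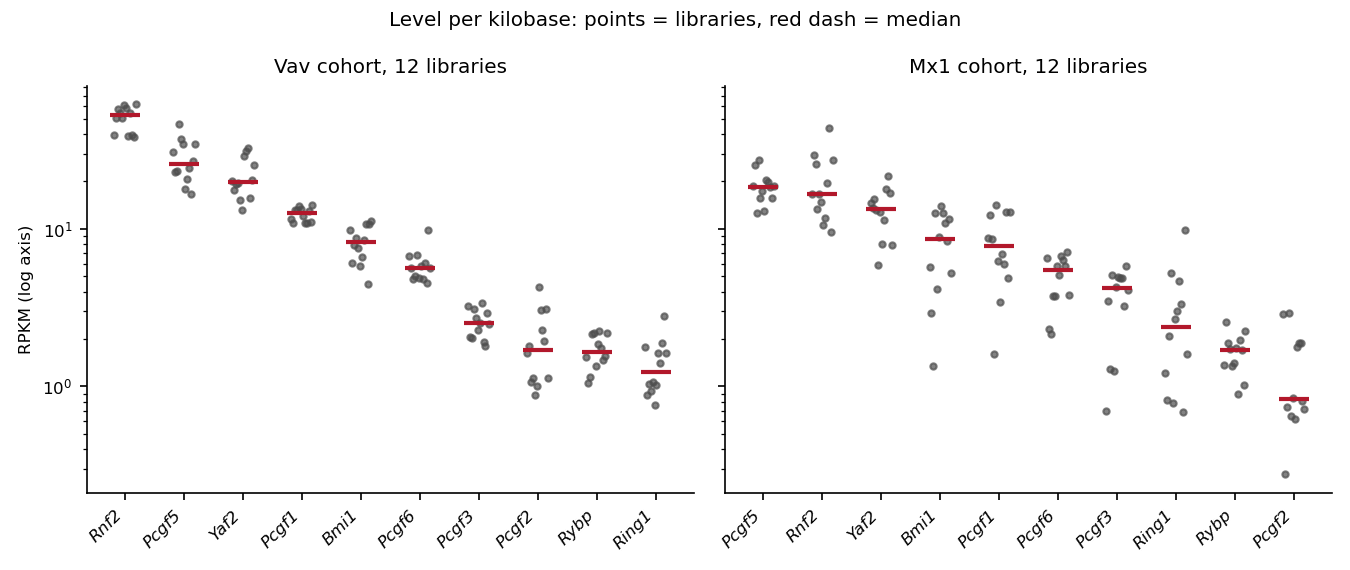
RPKM of each of the 10 subunits on a log axis, 1 point per library, for the Vav and the Mx1 cohort, with the median marked. Rnf2 lies above all others in the 12 Vav libraries (median 52.6), while in the Mx1 libraries its median of 16.6 falls below that of Pcgf5 (18.5). In CPM, without the division by length, the Mx1 median of Rnf2 (68.6) is above that of Pcgf5 (30.7).

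The Mx1 libraries kept much of this order. Pcgf5 (median 18.5 RPKM) and Rnf2 (16.6) were the highest and could not be separated, Pcgf5 being above in 7 of 12 libraries. Yaf2 (13.4), Bmi1 (8.60), Pcgf1 (7.77), Pcgf6 (5.45) and Pcgf3 (4.19) followed, then Ring1 (2.38), Rybp (1.70) and Pcgf2 (0.827). Spread between libraries was wider for most members than in the Vav cohort. Ring1 in CPM ranged 14.4-fold over the 12 Mx1 libraries and 3.70-fold over the 12 Vav libraries, Bmi1 10.4-fold and 2.49-fold, and Pcgf1 8.76-fold and 1.32-fold. Pcgf5, the most even member in the Mx1 cohort, ranged 2.18-fold there and 2.76-fold in the Vav cohort. The 2 cohorts differ in Cre line, age and library set, so levels between them were not tested.

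The first comparison asks how loss of Jarid2 changed these subunits in the Vav cohort. Averaged over HSC and MPP, Pcgf2 and Yaf2 rose in Jarid2-KO cells, by 1.02 and 0.50 on the log2 scale. The average counts HSC and MPP libraries as separate pools, and if they shared pools its p-values would not measure the spread between pools. The catalytic gene Rnf2 and the canonical subunit Bmi1 did not pass the test. The 2 members past the threshold are to be read beside the background, since 11.7% of the 15818 genes tested passed in this comparison, 6.56% as higher. An unadjusted p under 0.05 was found for 4 members and 31% of all genes. In bulk RNA, fewer cells of a type and less RNA per cell cannot be told apart.

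Pcgf2, which can take the place of Bmi1 in canonical PRC1, had 5.73, 6.34 and 3.78 CPM in control HSC and 15.1, 10.7 and 8.05 in Jarid2-KO HSC. In MPP it had 3.99, 3.13 and 3.53 CPM in controls and 6.83, 10.9 and 4.01 in Jarid2-KO. The 6 Jarid2-KO libraries lay above the control libraries of their own cell type, as in 4.45% of all genes, although in MPP the lowest Jarid2-KO library was above the highest control by only 0.02 CPM. The log2 fold change over both cell types was 1.02 (SE 0.28; adjusted p 0.0337, edgeR's quasi-likelihood test), and it was 1.02 in HSC (SE 0.39) and 1.02 in MPP (SE 0.40) taken alone, where the adjusted p was 0.217 and 0.185 by the same edgeR test. Pcgf2 is a low gene, with 42 to 304 counts per Vav library.

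Yaf2, which like Rybp joins the RING protein in variant complexes, had 37.6, 33.0 and 36.0 CPM in control HSC and 54.8, 58.2 and 61.1 in Jarid2-KO HSC. In MPP the values were 36.4, 28.4 and 24.8 CPM in controls and 29.4, 38.3 and 47.5 in Jarid2-KO. The HSC groups were well apart and the MPP groups overlapped. The log2 fold change over both cell types was 0.50 (SE 0.15; adjusted p 0.0439 by edgeR). In HSC it was 0.64 (SE 0.21; adjusted p 0.168 by edgeR), the smallest p of any member there, and in MPP 0.37 (SE 0.21).

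**Figure D2:**
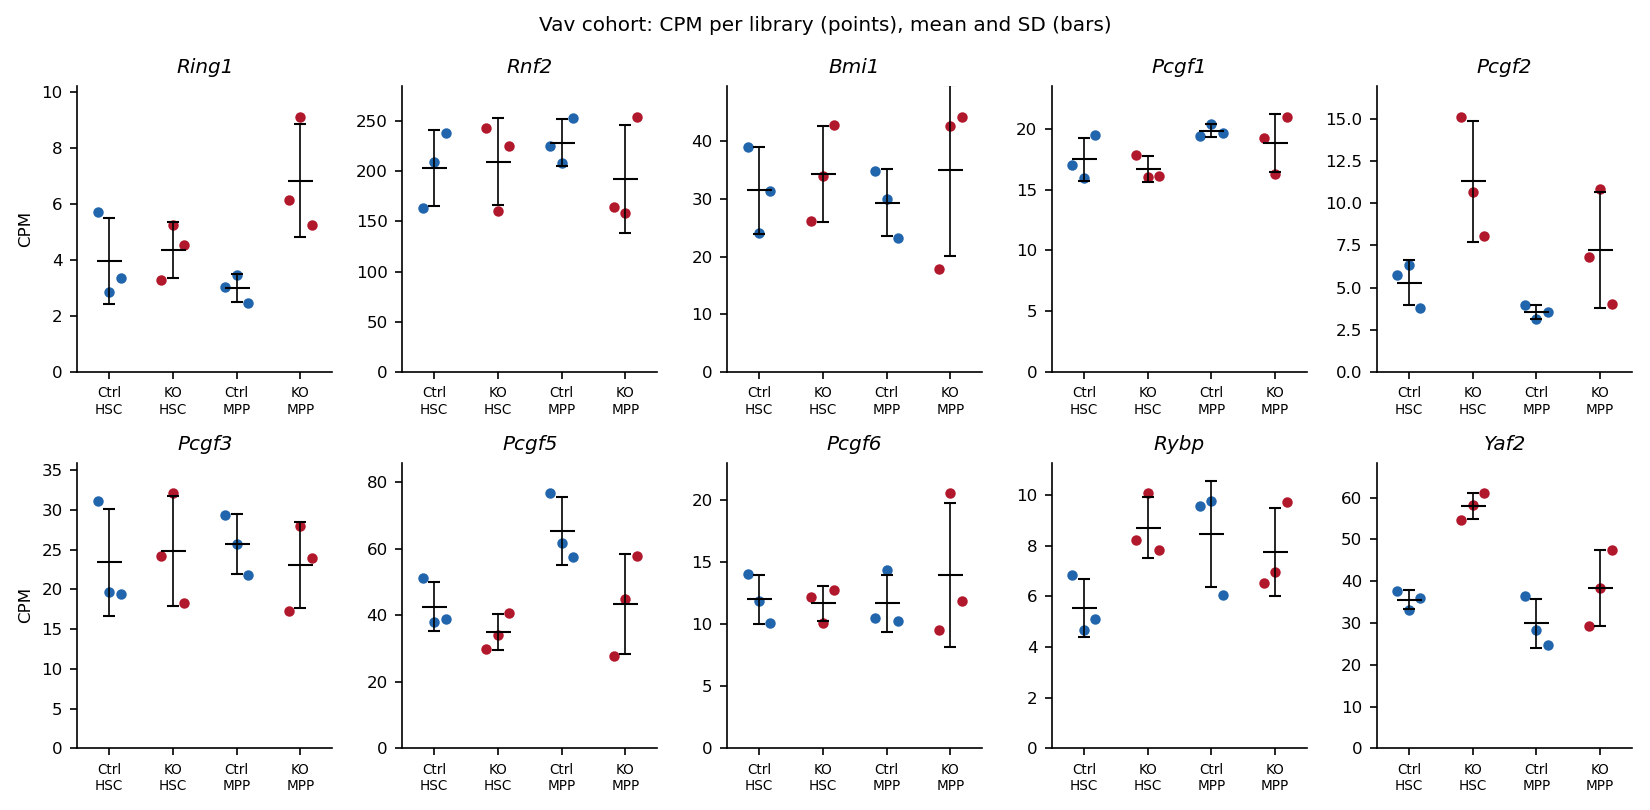
CPM of the 10 subunits in the 12 Vav libraries, 1 panel per gene with its own axis from 0, points for libraries and bars for group means. Pcgf2 lies higher in Jarid2-KO than in control libraries of both cell types, and Yaf2 lies higher in Jarid2-KO HSC (54.8 to 61.1 CPM) than in control HSC (33.0 to 37.6 CPM).

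These calls did not stand when single libraries were left out. Leaving out 1 of the 12 Vav libraries at a time, the log2 fold change of Pcgf2 stayed between 0.84 and 1.16 and that of Yaf2 between 0.41 and 0.59. The number of members past the threshold fell to 0 without control HSC replicate 2 or 3, any 1 of the 3 control MPP, Jarid2-KO HSC replicate 1 or 2, or Jarid2-KO MPP replicate 2. Of the 12 fits, Pcgf2 kept its call in 4 and Yaf2 in only 1, the fit without Jarid2-KO MPP replicate 1. Without Jarid2-KO MPP replicate 1, the library that stood apart, both genes passed (Pcgf2 1.04, adjusted p 0.0281; Yaf2 0.58, adjusted p 0.0139 by edgeR). With the replicate number as a block, Pcgf2 passed (0.97, adjusted p 0.0392) and Yaf2 did not (0.50, adjusted p 0.0685 by edgeR). Granulocyte and monocyte markers summed to 1028 to 3440 CPM in control HSC and 2927 to 8487 in Jarid2-KO HSC, and to 4463 to 5946 in control MPP and 5840 to 22752 in Jarid2-KO MPP. Macrophage and dendritic cell markers summed to 481 to 503 CPM in control HSC and 164 to 269 in Jarid2-KO HSC, and to 521 to 728 in control MPP and 295 to 312 in Jarid2-KO MPP. Markers of MPP and lymphoid priming summed to 897 to 973 CPM in control MPP and 422 to 717 in Jarid2-KO MPP. The part of these markers in the results was not tested.

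Among the other members, Pcgf5 and Ring1 came nearest to the threshold. Ring1, the minor catalytic subunit, had 3.04, 3.47 and 2.47 CPM in control MPP and 6.14, 9.13 and 5.25 in Jarid2-KO MPP, groups that did not overlap. In HSC it had 5.73, 2.85 and 3.34 CPM in controls and 3.29, 5.26 and 4.55 in Jarid2-KO, which overlapped. Its log2 difference was 1.20 in MPP (SE 0.38; adjusted p 0.119 by edgeR), 0.08 in HSC (SE 0.37) and 0.64 over both (SE 0.26; adjusted p 0.117 by edgeR). The difference between the effects in MPP and HSC was 1.11 (SE 0.53; adjusted p 1.00 by edgeR), the smallest p of any member. In that test of the difference 0 of 10 members and 0 of 15818 genes passed, with 0 members and 419 genes (2.65%) at an unadjusted p under 0.05. DESeq2 passed 7 genes there and limma-voom 0, none of them a member.

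Pcgf5, the most abundant Pcgf transcript, had 76.7, 61.7 and 57.4 CPM in control MPP and 27.8, 44.9 and 57.8 in Jarid2-KO MPP. In HSC it had 51.1, 38.0 and 38.7 CPM in controls and 29.9, 34.2 and 40.7 in Jarid2-KO. The groups overlapped in both cell types. The log2 difference over both was -0.47 (SE 0.18; adjusted p 0.0915 by edgeR), and it ranged from -0.61 to -0.35 with 1 of the 12 libraries left out. It passed in 1 of these 12 fits, without Jarid2-KO MPP replicate 3 (-0.61, adjusted p 0.0224 by edgeR).

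Rybp lay higher in all 3 Jarid2-KO HSC libraries (8.22, 10.1 and 7.83 CPM) than in control HSC (6.83, 4.65 and 5.10), with a log2 difference of 0.59 (SE 0.31) that did not pass the test. In MPP its groups overlapped, at 6.04 to 9.77 CPM in controls and 6.52 to 9.74 in Jarid2-KO. In HSC taken alone 0 of 10 members passed by edgeR, beside 0.569% of all genes, while 2 members and 17% of genes had an unadjusted p under 0.05. In HSC 3 members (Pcgf2, Yaf2 and Rybp) had Jarid2-KO libraries all above the controls, as did 16.2% of all genes. In MPP taken alone 0 of 10 passed, beside 0.948% of genes, with 3 members and 19.3% of genes at an unadjusted p under 0.05, and 2 members (Ring1 and Pcgf2) were above without overlap, as were 9.07% of genes.

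The remaining 5 members gave small differences over both cell types. Rnf2, the main catalytic subunit, had 204 ± 37.9 CPM in control HSC and 210 ± 43.4 in Jarid2-KO HSC, and 229 ± 23.0 and 192 ± 53.8 in MPP (mean ± SD, n = 3). Bmi1 had 31.5 ± 7.54 and 34.4 ± 8.29 CPM in HSC and 29.4 ± 5.83 and 34.95 ± 14.9 in MPP, in the same order. Pcgf1, partner of Bcor and Kdm2b in a variant complex, was the steadiest member, at 15.9 to 21.0 CPM over all 12 libraries. Pcgf3, found with Pcgf5 in closely related variant complexes, ran from 17.3 to 32.1 CPM, and Pcgf6, the Pcgf protein of the complex that holds E2f6 and L3mbtl2, from 9.53 to 20.5 CPM. The log2 differences of these 5 lay between -0.14 (Rnf2, SE 0.16) and 0.16 (Bmi1, SE 0.22).

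**Figure D3:**
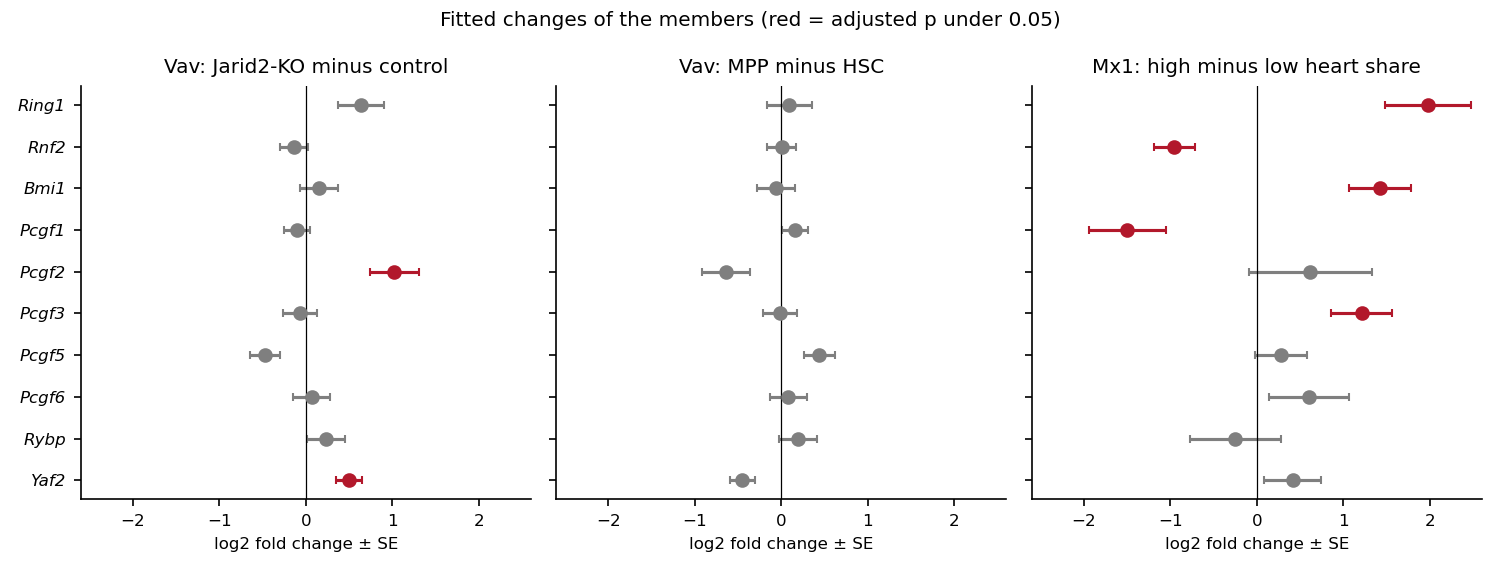
Log2 fold changes of the 10 subunits from edgeR with 1 SE to each side, for Jarid2-KO against control and MPP against HSC in the Vav cohort and for the Mx1 libraries with high against low heart share. Red points pass an adjusted p of 0.05 and grey points do not. Those in red are Pcgf2 and Yaf2 in the Jarid2-KO comparison, and Ring1, Bmi1, Pcgf3, Rnf2 and Pcgf1 in the heart share comparison.

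The second question was whether the subunits differ between HSC and MPP. No member passed in the Vav cohort by edgeR's test: 0 of 10 in controls (1.17% of all genes did), 0 of 10 in Jarid2-KO (0.525%) and 0 of 10 averaged over both genotypes (3.44%). An unadjusted p under 0.05 was found for 1 member in controls (8.44% of genes), 1 in Jarid2-KO (10.8%) and 3 in the average (14.3%). Yaf2 had the smallest p, with a log2 difference of -0.45 in MPP against HSC (SE 0.15; adjusted p 0.142 by edgeR). In Jarid2-KO cells the 3 MPP libraries (29.4 to 47.5 CPM of Yaf2) all lay under the 3 HSC libraries (54.8 to 61.1), one of the 6.87% of genes with that pattern, and the log2 difference was -0.58 (SE 0.21; adjusted p 0.304 by edgeR). Pcgf5 lay the other way in controls, where MPP had 57.4 to 76.7 CPM and HSC 38.0 to 51.1 without overlap, as in 10.7% of all genes. Its log2 difference there was 0.55 (SE 0.25; adjusted p 0.558 by edgeR).

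The pairs Rnf2 and Ring1, Bmi1 and Pcgf2, and Rybp and Yaf2 each fill the same place in the complex, and the share of each within its pair does not depend on library scaling. Rybp took 9.23% of the summed RPKM of Rybp and Yaf2 in MPP and 6.02% in HSC of the Vav cohort. Yaf2 was the main member of the pair in every library. The share was 7.10%, 5.59% and 5.62% in control HSC and 9.93%, 12.6% and 9.28% in control MPP. In Jarid2-KO it was 5.93%, 6.78% and 5.11% in HSC and 8.52%, 7.09% and 7.92% in MPP. Within each genotype every MPP library lay above every HSC library, and across genotypes the lowest MPP value (7.09%) and the highest HSC value (7.10%) met. The difference of 3.20 percentage points had p = 0.005 in a two-sided exact permutation test within genotype, the smallest p that the 400 arrangements allow, and 0.045 adjusted over the 9 share tests made. Shares taken from CPM, without the division by length, differed by 6.19 points in the same direction. The difference lay between 2.70 and 3.54 points with any 1 library left out, and at 3.04 points without Jarid2-KO MPP replicate 1. In the Mx1 cohort the Rybp share was 12.6% in MPP and 11.7% in libraries labelled HSC. That difference of 0.889 points did not pass (two-sided exact permutation p = 0.861). Mean Mx1 shares were lower in MPP in controls and Jak2V617F, and higher in MPP in the double mutant.

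The other shares did not pass after adjustment. Rnf2 made up 93.2% to 98.8% of the summed RPKM of Rnf2 and Ring1 in each Vav library, with 96.8% in MPP and 97.3% in HSC on average. Bmi1 made up 85.7% of Bmi1 and Pcgf2 in control libraries and 75.9% in Jarid2-KO libraries, a difference of -9.86 points (two-sided exact permutation p = 0.05, adjusted 0.146). The lowest Bmi1 share, 60.6%, was in Jarid2-KO HSC replicate 1 and the highest, 90.7%, in Jarid2-KO MPP replicate 3, so the genotypes overlapped. The Rybp share differed by -1.46 points between Jarid2-KO and control (exact permutation p = 0.065, adjusted 0.146), and by -2.73 points from CPM.

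**Figure D4:**
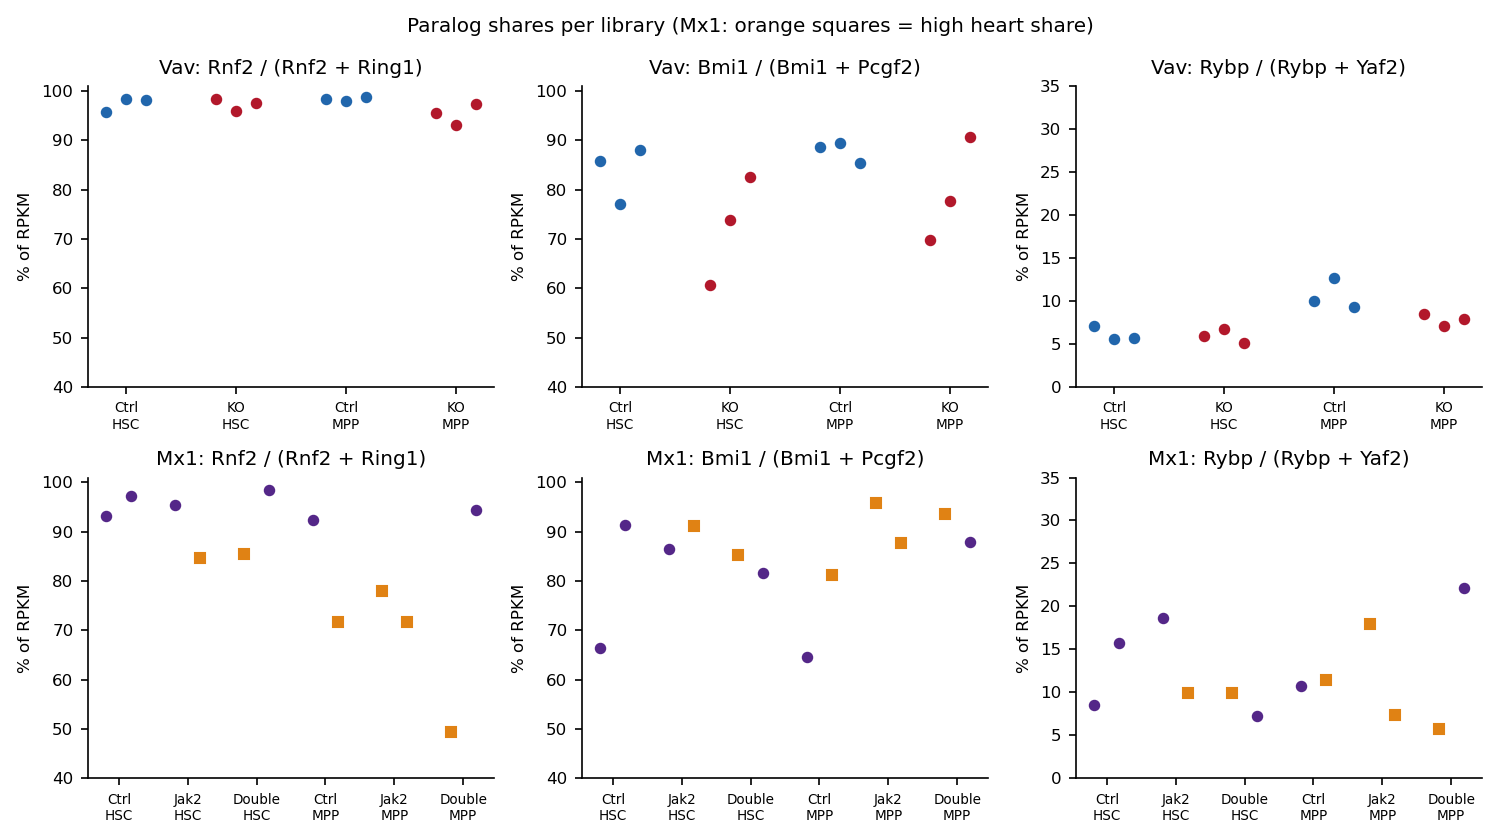
Share of Rnf2, Bmi1 and Rybp within each pair of paralogs in percent of summed RPKM, 1 point per library. In the Vav cohort the Rybp share is higher in MPP (7.09% to 12.6%) than in HSC (5.11% to 7.10%), and in the Mx1 cohort the Rnf2 share falls to 49.4% in 1 double mutant MPP library.

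Other genes of the PRC1 pathway were counted from lists fixed by name, with earlier results of these data known. Of 10 Cbx, Phc and Scm subunits of canonical PRC1, 2 rose and 1 fell in Jarid2-KO over both Vav cell types, where 11.7% of all genes passed and 6.56% passed as higher. Phc2, a polyhomeotic subunit that polymerises to compact chromatin, rose by 1.10 on the log2 scale (SE 0.25; adjusted p 0.0174 by edgeR), from 13.6 to 30.8 CPM in HSC means and from 16.5 to 34.4 in MPP means. Cbx6, a reader of the PRC2 mark, rose by 0.77 (SE 0.21; adjusted p 0.0324), and Phc3 fell by 0.61 (SE 0.16; adjusted p 0.0317 by edgeR). Of 21 partners of variant PRC1, 0 passed in either direction. Of 8 enzymes and cofactors that remove ubiquitin from H2A, Asxl1 rose by 0.67 (SE 0.18; adjusted p 0.0353 by edgeR). Its paralog Asxl2 fell by 0.72 (SE 0.16; adjusted p 0.0162) and the deubiquitinase Mysm1 fell by 0.83 (SE 0.25; adjusted p 0.0455 by edgeR). Whether the calls of these listed genes held with single libraries left out is not given here. The median log2 change was 0.11 over the 10 Ring, Pcgf, Rybp and Yaf2 genes and -0.00494 over all genes. In HSC or MPP taken alone, and between MPP and HSC, 0 members of these lists passed. Cdkn2a and Cdkn2b, the inhibitor genes that Bmi1 is known to silence, were too low to test, with Cdkn2a at 0 to 0.149 CPM and Cdkn2b at 0 to 0.347 CPM in Vav libraries.

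In the Mx1 cohort no subunit passed in any of the 12 comparisons between labelled groups by edgeR. These were the contrasts of MPP with HSC and of each genotype with the others. Of all 19616 genes, 0 passed in 11 of the 12, and 88 (0.449%) when the double mutant was set against Jak2V617F over both cell types. DESeq2 called 0 to 437 genes and limma-voom 0 to 98 per comparison, in each case with 0 of 10 members among them. In HSC of the double mutant 6 of 10 members (Rnf2, Pcgf2, Pcgf5, Pcgf6, Rybp and Yaf2) lay above both Jak2V617F libraries labelled HSC in CPM, as did 17.4% of all genes. On the TMM scale of the edgeR fit the log2 differences of 3 of these 6 were near 0 or within their SE, at -0.04 for Pcgf5 (SE 0.53), 0.12 for Pcgf6 (SE 0.81) and 0.18 for Rybp (SE 0.85). The lowest p of a member was that of Ring1 in MPP against HSC over the 3 genotypes, with a log2 difference of 1.45 (SE 0.63) and an adjusted p of 0.741 by edgeR. It was 1 of 10 members with an unadjusted p under 0.05 there, beside 3.49% of genes, and the other 11 comparisons had 0. Comparisons with control or Jak2V617F libraries, of HSC and MPP alike, rest on libraries low in HSC markers and high in granulocyte and monocyte markers. In the double mutant the granulocyte and monocyte markers summed to 2660 to 5057 CPM in HSC and 3601 to 6506 in MPP. Its HSC markers summed to 955 to 2869 CPM in HSC and 777 to 1369 in MPP. In contrasts with the double mutant, genotype and these marker differences cannot be told apart.

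Within single contrasts the member of smallest p varied, and its SE was large. For MPP against HSC it was Ring1 in controls (log2 difference 1.73, SE 1.10) and in the double mutant (1.51, SE 1.09), and Pcgf1 in Jak2V617F (-1.12, SE 0.94), with adjusted p of 0.843, 1.00 and 0.892 by edgeR. For Jak2V617F against control it was Rnf2 in MPP (-0.96, SE 0.60) and over both cell types (-0.78, SE 0.42), and Yaf2 in HSC (-0.72, SE 0.60), with adjusted p of 1.00, 0.863 and 1.00 by edgeR. Rnf2 in MPP had 106 and 55.1 CPM in controls, 43.6 and 48.7 in Jak2V617F, and 39.6 and 113 in the double mutant, whose replicates span both other genotypes. Yaf2 in libraries labelled HSC had 27.3 and 25.6 CPM in controls, 11.01 and 23.8 in Jak2V617F, and 33.7 and 40.6 in the double mutant. The double mutant gave a log2 difference from Jak2V617F of 0.87 for Yaf2 in HSC (SE 0.60), of 0.64 for Rnf2 in MPP (SE 0.60) and of 0.68 for Rnf2 over both (SE 0.42), each with an adjusted p of 1.00 by edgeR. With a term for heart share in the fit, the difference of Rnf2 in MPP was 0.01. From control it differed by -0.52 for Pcgf5 in HSC (SE 0.53; adjusted p 0.773) and by -1.38 for Pcgf2 in MPP (SE 1.22; adjusted p 1.00 by edgeR).

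Ring1 had the widest spread of any member between Mx1 libraries. In libraries labelled HSC its level was 3.92 and 2.64 CPM in controls, 2.54 and 8.63 in Jak2V617F, and 10.8 and 2.22 in the double mutant. In MPP it was 6.80 and 17.0 CPM in controls, 9.72 and 15.05 in Jak2V617F, and 31.9 and 5.22 in the double mutant. Within 4 of the 6 groups the replicates differed by more than 2 times, and in each of these 4 the higher replicate was the one with the higher heart share. Since 4 of 6 MPP libraries and 2 of 6 libraries labelled HSC had a heart share above 4%, cell type and heart share are partly mixed.

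**Figure D5:**
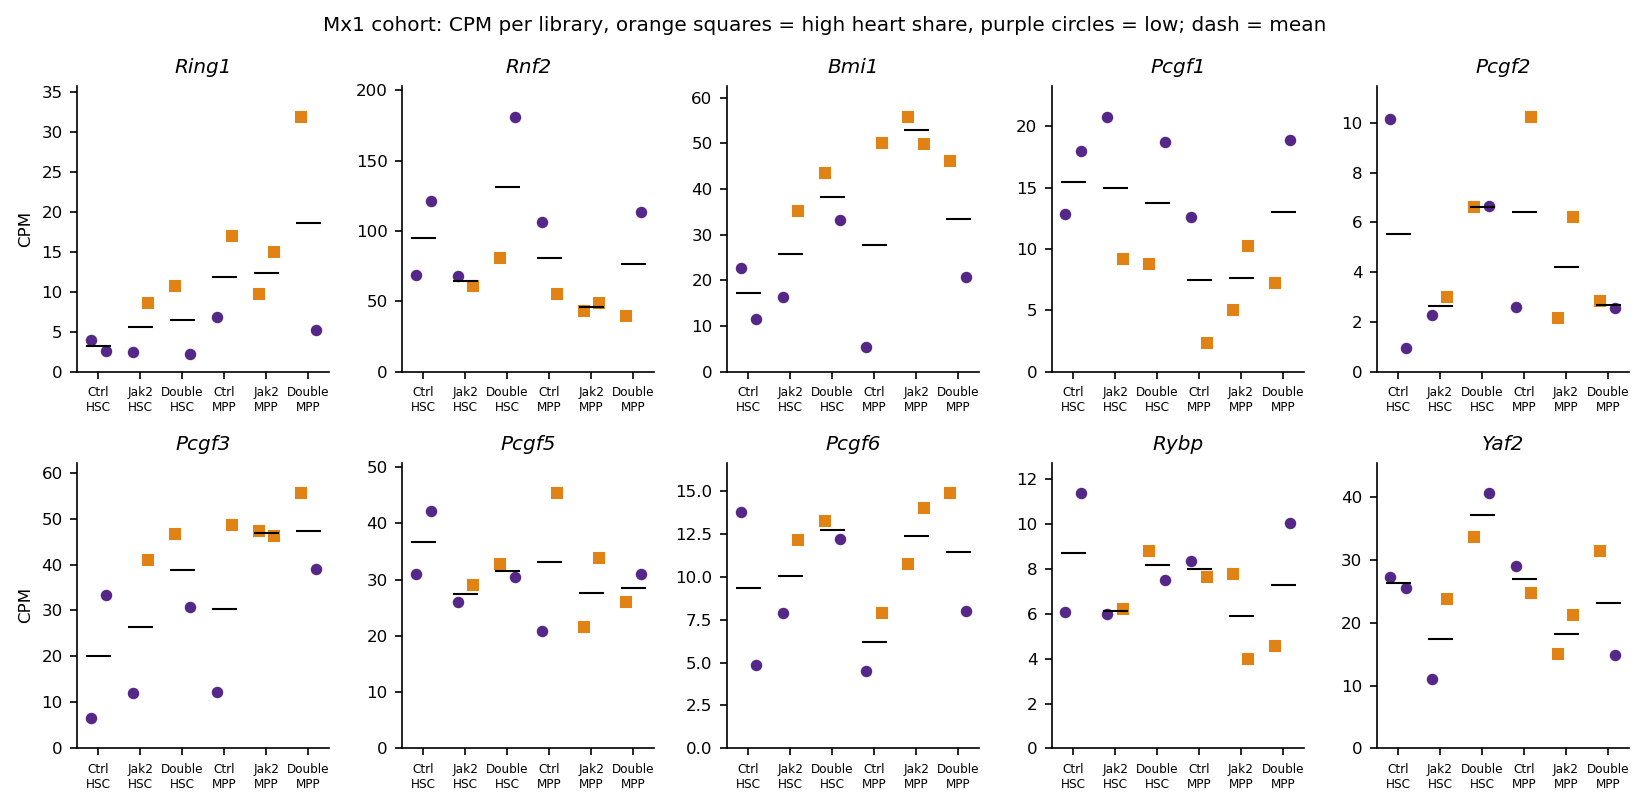
CPM of the 10 subunits in the 12 Mx1 libraries by labelled group, 1 panel per gene with its own axis from 0, with libraries of heart share above 4% marked apart from the rest. Ring1, Bmi1 and Pcgf3 lie higher and Pcgf1 lower in the 6 marked libraries than in the other 6.

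Set against each other within groups, a comparison added after the data were seen, the 6 libraries of high and the 6 of low heart share differed in 5 of 10 subunits, where 38.5% of all 19616 genes passed. Both libraries labelled control HSC were in the low set and both Jak2V617F MPP in the high set, so the contrast in this fit rests on the other 4 groups, with 1 library of each set. The high set also had 4.96% to 6.74% of counts from mitochondrial genes (1.31% to 1.94% in the low set) and 1989 to 2892 CPM over the stroma and endothelium markers (291 to 504), whose part in these differences was not tested. Ring1, Bmi1 and Pcgf3 were higher and Rnf2 and Pcgf1 lower with high heart share. Ring1 had 8.63 to 31.9 CPM (median 12.9) in the high set and 2.22 to 6.80 (median 3.28) in the low set, a log2 difference of 1.98 (SE 0.49; adjusted p 0.00143 by edgeR). Bmi1 had 35.1 to 55.9 CPM (median 48.1) against 5.36 to 33.2 (median 18.6), a difference of 1.42 (SE 0.36; adjusted p 0.00204 by edgeR). Pcgf3 had 40.9 to 55.5 CPM (median 47.0) against 6.67 to 39.1 (median 21.5), a difference of 1.21 (SE 0.35; adjusted p 0.00829 by edgeR). For these 3 genes the sets did not overlap, as for 16.5% of all genes in that direction.

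Pcgf1 had 2.37 to 10.2 CPM (median 8.00) in the high set and 12.6 to 20.8 (median 18.4) in the low set, without overlap, as 9.67% of genes were lower. Its log2 difference was -1.50 (SE 0.45; adjusted p 0.00710 by edgeR), and it did not pass without control MPP replicate 1 or replicate 2. Rnf2 had 39.6 to 81.2 CPM (median 51.9) against 68.3 to 181 (median 110), sets that overlapped, and a difference of -0.95 (SE 0.23; adjusted p 0.00110 by edgeR). The Rnf2 share of Rnf2 and Ring1 was 49.4% to 85.6% in the high set (mean 73.5%) and 92.5% to 98.5% in the low set (mean 95.2%), the latter close to the 93.2% to 98.8% of the Vav libraries. Between MPP and libraries labelled HSC that share was 76.3% and 92.5%, a difference of -16.2 points (two-sided exact permutation p = 0.0556, adjusted 0.146). How much of it goes with heart share was not tested. Yaf2, Rybp, Pcgf2, Pcgf5 and Pcgf6 did not pass between the sets. With a term for the 2 sets in the fit, 0 of 10 members passed in each of the 12 comparisons between labelled groups. The share of all genes that passed in these fits is not given here, so this count cannot be set beside it.

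As a description, the genes whose levels were most alike to 3 members over the 12 Vav libraries were listed by Pearson's r of log2(CPM + 1). The 12 points share groups and library composition. For Bmi1 they were Lrp6, Tmed7 and Ppp1cb, each with r = 0.956. For Rybp they were Echs1 (0.888), Peli2 (0.867) and Mterf4 (0.862). For Rnf2 the first were Gm28180 (0.958) and Hspe1-ps2 (0.925), both with medians under 1 CPM, followed by Aldh6a1 (0.909). Between members, Rnf2 and Ring1 had r = -0.73 in the Vav cohort and -0.76 in the Mx1 cohort. Other pairs were about as strong: Pcgf1 and Pcgf2 had -0.71 in the Vav cohort, and Ring1 and Pcgf1 -0.77 and Bmi1 and Pcgf6 0.79 in the Mx1 cohort. In the Mx1 cohort Ring1 was also higher and Rnf2 lower with high heart share. The part of heart share in these correlations was not tested.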

How the data were processed

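Each of the 24 RNA-seq libraries had 1 table, and 8 other samples of the series (histone mark profiling) were not analysed here. The deposited tables give, per the file headers, raw counts for each gene (Count), those counts scaled to a common library total (CPM) and CPM divided by exonic length in kilobases (RPKM). The submitters' processing notes name Partek 6.6, HTSeq 0.8.0, featureCounts 1.4.5, Subread, STAR 2.0.4 and the build mm10, with no roles. RNA was amplified with SMARTer Ultra Low reagents, per the labels. Of 41388 genes, 40254 matched a symbol. Cohorts were fitted apart. Exons are listed differently for 14573 genes, but merged exons and lengths were equal in both cohorts for all 41388.

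Counts were tested with edgeR 4.0.16 (R 4.3.3): filterByExpr (minimum count 10, minimum total 15), TMM scaling, robust quasi-likelihood F tests, Benjamini-Hochberg adjustment over all genes, threshold 0.05. Tested genes numbered 15818 (Vav) and 19616 (Mx1). Residual degrees of freedom were 8 and 6, and biological coefficients of variation 0.337 and 0.786. All 10 members passed the filter in both. SE is the size of the log2 fold change over the square root of F. Shares of paralogs from RPKM were compared by exact permutation tests within strata, with adjustment over 9 tests. The code was tested on simulated data.

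Full statistics were given for members past the threshold and for the member of smallest p where none passed. Other members given with statistics (Pcgf2, Yaf2, Pcgf5, Ring1 and Rybp where they did not pass) were chosen after their values were seen. Pathway lists give counts and at most 4 members past the threshold, and likeness the 3 genes of highest r. The members and lists were chosen with earlier results of these data known. Alternatives were DESeq2 size factors, no filter, a minimum count of 20, DESeq2 1.42.0, limma-voom (limma 3.58.1) with sample weights, the replicate number as a block, only the groups compared, each library left out, a term for libraries above 4% heart transcripts, and shares from CPM. The comparison of libraries by heart share was added after the data were seen.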

Additional observations from a re-analysis of the deposited data

How the results depend on the processing

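The number of members past the threshold in the Jarid2-KO comparison over both Vav cell types was 2, and it was 1 with no filter (Pcgf2), 1 with the replicate number as a block (Pcgf2), and 4 with limma-voom (Pcgf2, Yaf2, Ring1 and Pcgf5). It ranged from 0 to 2 with single libraries left out. With limma-voom the number was 2 in Jarid2-KO against control HSC (Pcgf2 and Yaf2), 1 in MPP (Ring1, which also passed with DESeq2, 1 member), 1 in control MPP against HSC and 1 in MPP against HSC over both genotypes (Pcgf5 in each). The share of all genes that passed in these alternative Vav fits is not given here, so these counts cannot be set beside it. With libraries left out the number of members ranged from 0 to 1 for Jarid2-KO against control MPP and from 0 to 1 for MPP against HSC over both genotypes. It was 0 for the difference of effects, for Jarid2-KO MPP against HSC and for all 12 Mx1 comparisons between labelled groups under every alternative run, and 4 to 5 between the sets of heart share. Fits over only the groups compared were not run where these were all groups. Share differences with libraries left out ran, for MPP against HSC in the Vav cohort, from -1.02 to 0.0467 points for Rnf2, and for Jarid2-KO against control from -2.09 to -1.02 for Rnf2, from -12.7 to -6.93 for Bmi1 and from -1.80 to -0.960 for Rybp. In the Mx1 cohort they ran from -23.7 to -8.67 for Rnf2, from -2.80 to 5.50 for Bmi1 and from -1.84 to 3.62 for Rybp. Paired by replicate number as a block, the Rnf2 difference of -16.2 had an exact permutation p of 0.03125. That is the smallest p this paired test can give, and it was not adjusted over the 9 share tests. Of single members, Ring1 in double mutant MPP against HSC (1.51) ranged from -0.38 to 3.22 and Rnf2 in double mutant against Jak2V617F MPP (0.64) from -0.28 to 1.21 in log2. Likewise Pcgf2 in double mutant against control MPP (-1.38) ranged from -2.04 to -0.20, Rnf2 in Jak2V617F against control MPP (-0.96) from -1.39 to -0.30, Yaf2 in Jak2V617F against control HSC (-0.72) from -1.28 to -0.33, and Pcgf1 in Jak2V617F MPP against HSC (-1.12) from -1.65 to -0.24. With the heart share term these 3 last were -0.38, -0.98 and -0.21, and Rnf2 in double mutant against Jak2V617F MPP was 0.01. The cause of these changes was not tested. Between groups, deviations of libraries with the same replicate number had a median correlation of -0.03 in the Vav cohort (-0.25 to 0.30). In the Mx1 cohort it was 0.03 (-0.54 to 0.52). Most of these pairs joined different genotypes, so the check cannot tell whether HSC and MPP of 1 genotype came from the same pools. The numbers were not taken to pair samples, and the block changed no other count of members. Where leaving out a library left 1 in a group, that library was assumed to vary like the others. With 2 libraries a group and a coefficient of variation of 0.786, the Mx1 fit resolves only large differences.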
